A study of Mus musculus with 2 samples.

Results

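The subject is the stretch of mouse chromosome 12 that holds Twist1, Ferd3l and the long gene Hdac9, and the CTCF peaks found there in embryonic limb. Members were chosen by position alone: every peak of the authors' optimal list whose summit lay from 300 kb before the start of Ferd3l to 300 kb past the end of Hdac9, that is chr12:33628425-35217095 in mm10. This gave 20 of the 49970 peaks of that list. The assay was chromatin immunoprecipitation of CTCF with sequencing, on limbs of B6NCrl mouse embryos at 14.5 days, and the labels name no genetic change or treatment. There is 1 group with 2 libraries, replicate 1 and replicate 2, and the labels describe the tissue of each as pulverized limbs pooled from several dissections of both sexes. The labels number them as biological replicates, yet both carry the same biosample label. The spread between them may therefore be technical, and it says nothing of differences between single embryos. Limb is a mixture of cartilage, muscle, connective tissue, skin, vessels and nerve, and the peaks cannot be assigned to any of these.

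Twist1 encodes a basic helix-loop-helix (bHLH) transcription factor of mesenchyme that is needed for limb bud outgrowth and for the sutures of the skull. Ferd3l, which lies just before it, encodes a related bHLH factor known from the floor plate of the developing midbrain. Hdac9 encodes a class IIa histone deacetylase that binds MEF2 factors in muscle, and in the mouse its long gene body is also known to hold enhancers that act on Twist1 in limb buds and branchial arches. CTCF is a zinc finger protein that binds a long motif with a direction, and cohesin loops often end at CTCF sites whose motifs point toward each other. Which of these peaks, if any, anchor a loop was not measured here.

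The motif was searched with a matrix of 20 positions refined from the strongest CTCF peaks of odd-numbered autosomes, so chromosome 12 took no part in it. Its consensus letters were TGTGGCCACCAGGGGGCGCT, which is the known CTCF core motif. The sequences below are those of the peak just before Twist1, of the strongest peaks in Hdac9 and of the strongest peaks past it. Each is read 5′ to 3′ on the strand of its motif from the mm10 reference, with the motif match in capitals and 15 bases on either side in lower case.
Before Twist1, reverse strand, chr12:33953002-33953051: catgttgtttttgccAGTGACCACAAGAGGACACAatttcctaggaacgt
Hdac9 intron, reverse strand, chr12:34432636-34432685: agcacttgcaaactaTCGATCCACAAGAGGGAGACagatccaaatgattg
Hdac9 intron, reverse strand, chr12:34658391-34658440: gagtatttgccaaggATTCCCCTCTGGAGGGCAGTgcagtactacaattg
Hdac9 intron, forward strand, chr12:34664926-34664975: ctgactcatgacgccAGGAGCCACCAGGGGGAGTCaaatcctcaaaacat
Past Hdac9, reverse strand, chr12:35182861-35182910: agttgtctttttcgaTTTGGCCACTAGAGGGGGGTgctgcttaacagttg
Past Hdac9, reverse strand, chr12:35192346-35192395: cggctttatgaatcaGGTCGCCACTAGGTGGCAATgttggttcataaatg

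A motif was found within 50 bp of the summit at 17 of the 20 peaks, against 82.7% of all optimal peaks and 82.6% of those on the chromosomes that the matrix was not made from. The limit was the score met by 5% of windows beside the peaks. With the limit set where 1% of those windows meet it, 13 of 20 had a motif, against 64.6%. All 17 matches had the consensus C at the seventh position, 16 had the G at the twelfth and 16 the G at the fifteenth. Over all matches at optimal peaks these shares were 98.6%, 99.4% and 98.2%. The first 5 and last 3 positions had the consensus base in 4 to 9 of the 17, against 26.9% to 48.6% of all matches. The tenth position, inside the core, had it in 6, against 35.6%. Position 9 had it in 14, against 48.0%, and position 16 in 12, against 89.6%. A CpG stood in 4 of the 17 matches, against 40.9% of all matches at optimal peaks. The median match scored 12.1 in the interval and 14.8 over all optimal peaks with a motif, and the median distance of its centre from the summit was 8.5 bp in the interval and 6.5 bp over all.

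CTCF sites were sparser here than over the genome as a whole. The interval held 12.6 optimal peaks per Mb, against 18.9 per Mb over all main chromosomes without assembly gaps. Pooled signal, which is the authors' own value for a peak in the optimal list, ran from 16.2 to 286 with a median of 42.4, against a median of 58.4 for the whole list, and 9 of the 20 lay above that median, against 50% of the list. The nearest peaks left out lay 20.4 kb before the interval (pooled signal 63.2) and 3.51 kb past it (47.2). Peaks of one locus are not replicates, so these differences from the whole list were not tested. The deposited −log10 q-value stood at its cap at 13 of the 20, against 74.2%, and the score for irreproducible discovery rate (IDR) at its top value of 1000 at 15, against 77.2%. In the conservative list, a second deposited list, the interval's median was 0.996 times that of the whole list, against 0.727 times in the optimal list.

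By place, 12 of the 20 peaks lay within Hdac9, all with summits in introns, and none of those peak regions touched an annotated Hdac9 exon. A further 6 lay between genes, 1 at the first exon-intron boundary of Twist1, and 1 in the start region of Snx13, a sorting nexin gene. Set apart by distance, 17 of the 20 summits were farther than 1 kb from any transcription start site (TSS), against 79.0% of the list. Those 17 were 11 intronic, 6 intergenic and 0 exonic of all 20 peaks, against 38.6%, 35.2% and 5.22% of the list. In repeat-masked sequence stood 2 of the 20 summits, against 17.4% of all.

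**Figure D1:**
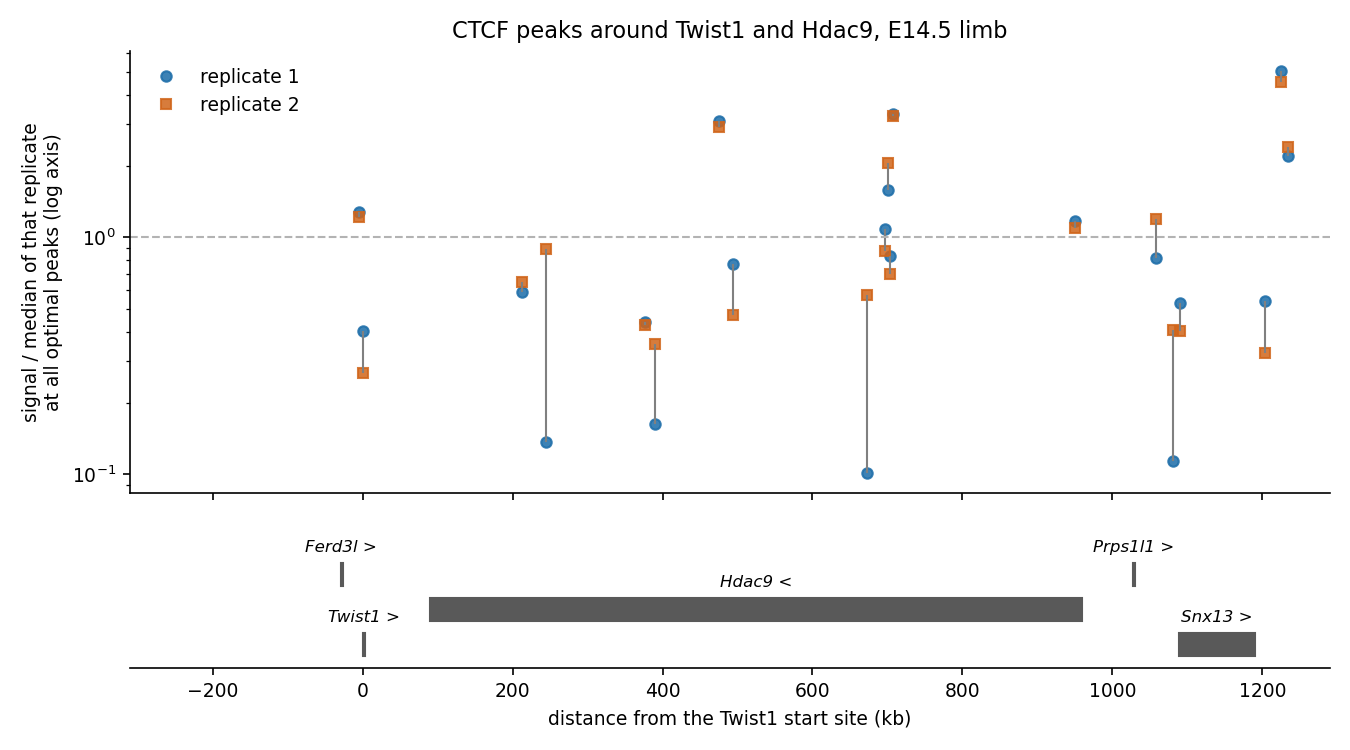
Signal of each of the 20 peaks in replicate 1 (circles) and replicate 2 (squares), divided by the median of that replicate at all optimal peaks, on a log axis, against distance from the Twist1 start site in kb. Grey lines join the replicates of a peak, the dashed line marks the median, and arrowheads beside gene names give their strand. No peak stands in the 300 kb before Ferd3l or between Twist1 and Hdac9.

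Twist1 (chr12:33957671-33959829, forward strand) had one stronger site just before it and one weak site inside it. The site before it, with its summit at 33953041, lay 4630 bp upstream of the TSS and between genes. It had signals of 39.3 in replicate 1 and 35.4 in replicate 2 (37.3 ± 2.78, SD, n = 2) and a pooled signal of 73.0, rank 21644 of 49970. It ranked 20957 in replicate 1 and 21735 in replicate 2, so the libraries placed it alike, and it was in the conservative list.

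The site inside Twist1 had its summit at 33958654, 983 bp past the TSS and in the start of the single intron, next to the end of the first exon. Its signals were 12.3 in replicate 1 and 7.75 in replicate 2 (10.03 ± 3.22, SD, n = 2), with a pooled signal of 21.05, rank 44802. In replicate 2 it ranked 61072, outside the strongest 49970, and it was not in the conservative list. The sequence around the summit was 69.7% G or C over 201 bp, the highest of the 20, against a median of 45.8% for the interval. Its best match, TCCGGCCTGCAGAGGGGGTG on the reverse strand at chr12:33958612-33958631, lay 32.5 bp from the summit in the 3′ untranslated part of the first exon and scored 6.47, the lowest of the 17. It did not reach the stricter score. It was the only optimal summit within 1 kb of the Twist1 TSS, and within 500 bp the optimal list had none. The full lists held 2 summits within that 1 kb in replicate 1 and 3 in replicate 2.

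Ferd3l (chr12:33928425-33929310) had no optimal peak in or near it. The closest was the same site before Twist1, 24616 bp past the Ferd3l TSS. Within 1 kb of that TSS, the full replicate 2 list held a summit with a signal of 5.84, rank 83201 of 300000, and the full replicate 1 list held none. The 300 kb before Ferd3l held 0 optimal peaks and the full lists there held 22 summits in replicate 1 and 21 in replicate 2, all but 1 of them below the strongest 49970. That exception, in replicate 1, had a signal of 14.5 there and 3.44 in replicate 2. Between optimal summits, the stretch from 33608011 to 33953041 measured 345 kb, and 2.02% of all gaps between neighbouring optimal summits were as long.

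Hdac9 (chr12:34047580-34917095, reverse strand) is 870 kb long, and 12 optimal peaks give it 1.38 per 100 kb. Among the 230 protein-coding genes of at least 500 kb, the median was 0.914 per 100 kb (quartiles 0.439 and 1.56), and 76 genes had more than Hdac9. The sites were not spread evenly. Intron numbers follow Hdac9-210, the longest transcript, which is annotated as subject to nonsense-mediated decay, and are counted from its 5′ end on the side away from Twist1.

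On the 3′ side of Hdac9, 213 to 390 kb past the Twist1 TSS, 4 moderate or weak peaks lay in pairs in introns 23 and 14. The pair in intron 23 had pooled signals of 37.9 (summit 34170816) and 35.2 (summit 34201670). The first had 18.0 in replicate 1 and 18.9 in replicate 2, close to each other. The second had 4.18 in replicate 1, rank 161039, and 25.9 in replicate 2, rank 26428. That is the widest split between the replicates in the interval. The pair in intron 14 had pooled signals of 26.5 (summit 34334882) and 16.8 (summit 34347732). The first of these had 13.4 in replicate 1 and 12.4 in replicate 2, while the second had 4.99 and 10.3. From the site inside Twist1 to the first site inside Hdac9 there were 212 kb without an optimal summit, a length that 4.15% of all gaps reached, and the 87.8 kb between the genes held none.

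In the middle of the gene, the second strongest Hdac9 site stood in intron 6, an intron of only 1.09 kb. Its summit was at 34432656, 475 kb from the Twist1 TSS, and its signals were 94.7 in replicate 1 and 85.2 in replicate 2 (89.9 ± 6.71, SD, n = 2), with a pooled signal of 181, rank 9069. The nearest TSS was that of the short transcript Hdac9-208, 4651 bp away. A weaker site in intron 4 (summit 34451353) had 23.5 in replicate 1 and 13.6 in replicate 2, with a pooled signal of 38.2. The start sites shared by most protein-coding Hdac9 transcripts, at 34528304 to 34528874, lay between these sites and the next group, with at least 76951 bp to the nearest optimal summit. None of the 5 lists had a summit within 1 kb of them.

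The densest group lay in intron 3, the longest intron at 299 kb, with 5 peaks. Of these, 4 stood within 11.1 kb, from the summit at 34653853 to that at 34664964. The last was the strongest site of Hdac9, with 102 in replicate 1 and 94.7 in replicate 2 (98.2 ± 4.85, SD, n = 2), a pooled signal of 198 and rank 7760. It lay 707 kb from the Twist1 TSS and 252 kb from the Hdac9-210 TSS. Its whole peak, chr12:34664888-34665070, is shown on the forward strand with the match in capitals, since it is the strongest site inside the host gene.
Strongest Hdac9 peak: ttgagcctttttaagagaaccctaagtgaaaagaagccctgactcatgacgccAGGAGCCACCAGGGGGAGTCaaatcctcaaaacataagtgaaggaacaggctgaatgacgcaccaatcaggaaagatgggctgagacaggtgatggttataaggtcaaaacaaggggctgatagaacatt

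Its neighbours in the group were weaker. The summit at 34658420 had 48.6 in replicate 1 and 60.1 in replicate 2 (54.4 ± 8.15, SD, n = 2), with a pooled signal of 109. The summit at 34653853 had 33.3 and 25.5, with a pooled signal of 59.9, and that at 34661544 had 25.5 and 20.4, with a pooled signal of 46.7. All 4 were among the strongest 49970 of both replicates. The matches at 34653853 and 34658420 scored 7.72 and 8.67 and did not reach the stricter score, although the second of these sites was the fifth strongest of the interval. The fifth peak of the intron, 23.7 kb away at 34630142, was weak, with 3.10 in replicate 1, rank 291821, 16.6 in replicate 2, rank 35026, and a pooled signal of 21.1.

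Past this group the next 243 kb of Hdac9 had no optimal summit, a length that 3.43% of all gaps reached. The outermost Hdac9 site, at 34907689 in intron 2, had 35.8 in replicate 1 and 31.7 in replicate 2 (33.8 ± 2.92, SD, n = 2) and a pooled signal of 68.2. It lay 9406 bp inside the Hdac9-210 TSS and 710 bp from the start of Hdac9-209, a transcript annotated as a retained intron. No motif was found there. It was the only optimal summit within 1 kb of any of the 7 annotated Hdac9 start sites.

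Past the 5′ end of Hdac9 lay the strongest site of the interval. Its summit at 35182884 stood between genes, 135698 bp from the Snx13 TSS and 266 kb from that of Hdac9, with 154 in replicate 1 and 131 in replicate 2 (143 ± 16.3, SD, n = 2). The pooled signal of 286 ranked 2591, within the strongest 5.19% of the list. A second strong site 9.50 kb farther, at 35192382, had 67.5 and 69.9 in the replicates and 137 pooled, and its motif score of 19.7 was the highest of the 20. It lay 2515 bp from Mir680-3, an annotated microRNA gene. At both sites the libraries gave close values.

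The other 4 sites on that side were weaker. The summit at 35016249, between Prps1l1 and Snx13, had 25.01 in replicate 1 and 34.7 in replicate 2 and a pooled signal of 60.6. The summit at 35038943, in a repeat and without a motif, had 3.48 in replicate 1, 11.8 in replicate 2 and the lowest pooled signal of the interval, 16.2. At Snx13, a summit 647 bp past the first TSS had 16.2 and 11.7, with 27.1 pooled and no motif, in sequence that was 66.7% G or C. Past Snx13, the summit at 35161871 lay in a repeat and had 16.4 and 9.47, with 25.6 pooled. Prps1l1, a phosphoribosyl pyrophosphate synthetase gene, had no optimal summit within 1 kb of its TSS.

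**Figure D2:**
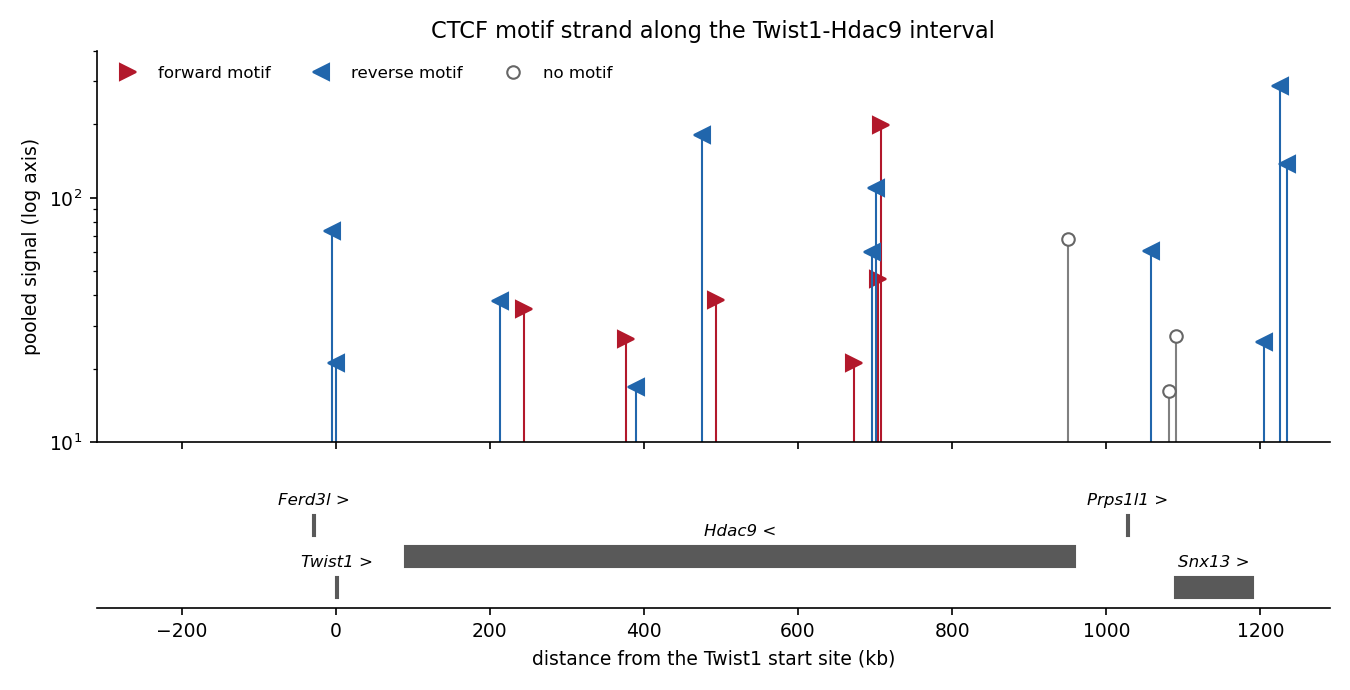
Pooled signal of the 20 peaks on a log axis against distance from the Twist1 start site in kb, with the strand of the motif as the direction of the triangle and open circles where no motif was found. Forward motifs, 6 of 17, all stand within Hdac9, and the interval's 6 motifs outside it are all reverse.

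Motif strand changed along the interval. Of the 17 motifs, 6 were forward and 11 reverse, against 49.8% forward over all optimal peaks with a motif. Inside Hdac9, 6 were forward and 5 reverse. Both motifs at Twist1 and all 4 past Hdac9 were reverse, so each of the interval's 6 outside Hdac9 pointed toward lower coordinates. This holds within the chosen flanks only. The nearest peak past the interval, 3.51 kb outside it at 35220603, had a forward motif, and the nearest before it had none. The strongest Hdac9 site was forward and the next strongest, in intron 6, reverse.

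Of the 16 neighbouring pairs of motif-bearing peaks, 10 were tandem, 3 convergent and 3 divergent, against 52.4%, 23.8% and 23.8% of such pairs over all chromosomes. The convergent pairs were 12.9 kb apart in intron 14, 23.7 kb apart in intron 3, and 351 kb apart from the strongest Hdac9 site to the site at 35016249. The last of these spans the 5′ part of Hdac9 and its first start site, with the motif-free site of intron 2 between. Each of the others includes a weak site that is not in the conservative list, at 34347732 (4.99 in replicate 1) and at 34630142 (3.10). The divergent pairs were 30.9, 18.7 and 3.12 kb apart. From Twist1 into Hdac9, the optimal list had reverse motifs at and before Twist1 and at its first site in Hdac9. Its first forward motif came 244 kb past the Twist1 TSS. That motif belongs to the site at 34201670, which ranked 161039 in replicate 1 and was not in the conservative list. The next forward motif of the optimal list came 377 kb past the TSS. The conservative list held a nearer forward motif, at a site 93.6 kb past the TSS that is described below. With the strongest 49970 peaks of replicate 1 alone, pairs were 6 convergent, 5 tandem and 5 divergent, so all 3 counts rest on which weak peaks are taken.

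**Figure D3:**
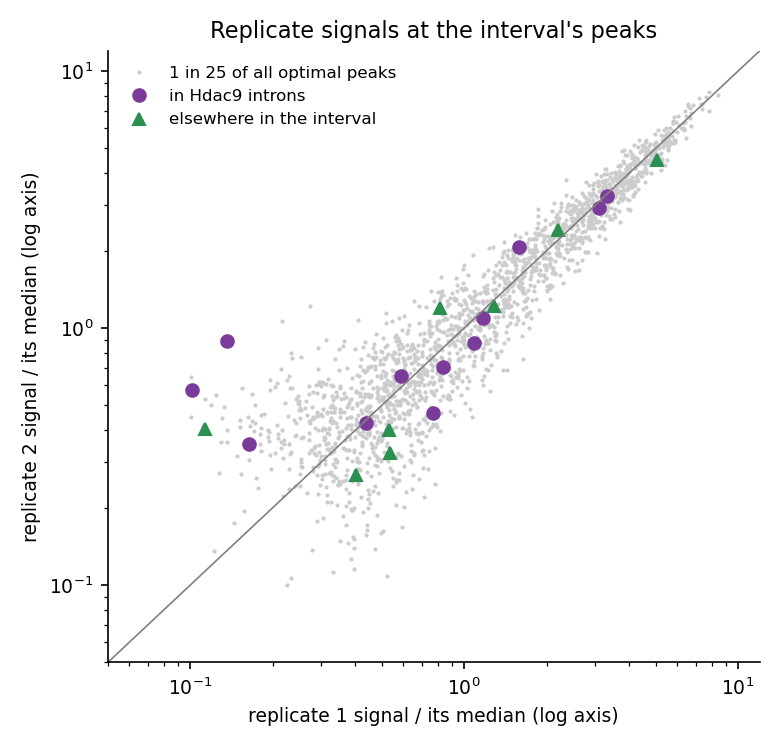
Replicate 2 signal against replicate 1 signal, each divided by its own median at all optimal peaks, on log axes, with the line of equality. Large circles are the 12 peaks in Hdac9, triangles the other 8, and grey dots 1 in 25 of all optimal peaks. At 4 weak peaks the replicate 2 value lies far above the line.

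All 20 peaks had a summit within 100 bp in both full replicate lists, against 97.5% of all optimal peaks. Among the strongest 49970 of both lists, however, were 14 of the 20, against 81.2%, and 15 of the 20 had a match in the conservative list, against 87.6%. The replicates ranked the 20 sites alike on the whole, with a Spearman rho of 0.829 (n = 20 sites of the same 2 libraries, a description), against 0.935 over all optimal peaks. The difference between replicates, as a log2 ratio after division by each replicate's median, had an SD of 0.99 in the interval and 0.50 over all.

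That spread came from few sites. At 4 of the 20 the ratio was more than 1 on the log2 scale, against 6.16% of all optimal peaks. All 4 were among the 10 interval peaks with a pooled signal of 40 or less, and in that range, from 16.2 to 40, the share over all optimal peaks was 15.0%. These were the sites at 34201670 (-2.71), 34630142 (-2.50), 35038943 (-1.83) and 34347732 (-1.12), and replicate 2 was higher at each. None of the 4 was in the conservative list. The 5 strongest sites differed by at most 0.38 on that scale. These 5 were also the only ones called narrower than 276 bp, the most common width, which 65.3% of all optimal peaks had.

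**Figure D4:**
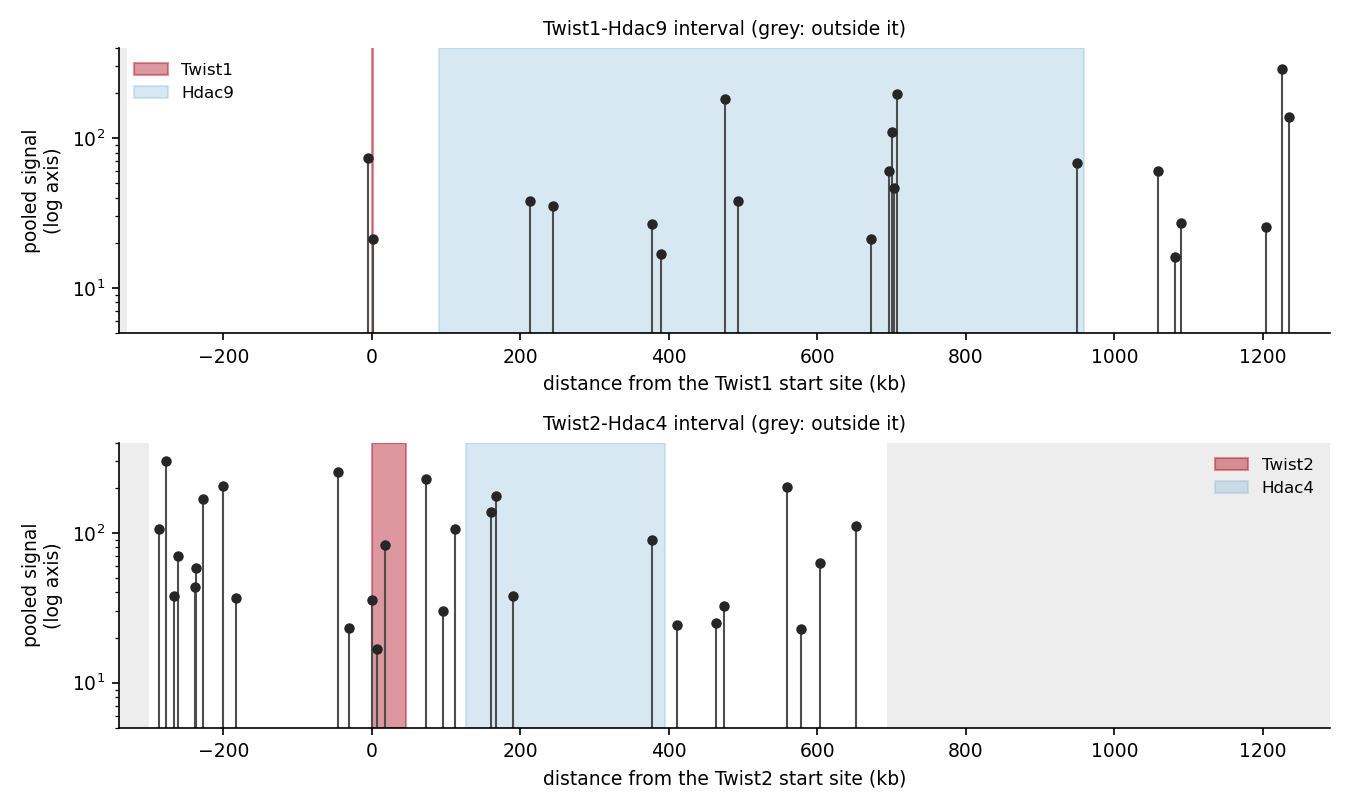
Pooled signal of optimal peaks on a log axis against distance from the start site of Twist1 (top, 20 peaks) and of Twist2 (bottom, 28 peaks), in kb. Red spans are the Twist genes and blue spans the Hdac genes, and no stem stands between the red and the blue span in the top panel, against 3 in the bottom one.

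Twist2, the closest relative of Twist1, lies beside Hdac4, another class IIa deacetylase gene, in the same order and directions. That interval, taken by the same rule (chr1:91501461-92495699), served as a like arrangement for a side-by-side description with no test. The Twist1-Hdac9 interval held 20 peaks in 1.59 Mb and the Twist2-Hdac4 interval 28 in 0.994 Mb, which is 12.6 and 28.2 per Mb. With flanks of 100 kb each held 15, and with 200 kb they held 17 and 18, the Twist1-Hdac9 interval being the longer each time. Its density was then 12.6 and 12.2 per Mb. Their median pooled signals were 42.4 and 66.6, and 14 of 20 and 25 of 28 were among the strongest of both replicates. The host genes had like densities, 1.38 per 100 kb in Hdac9 and 1.499 in Hdac4. Between the Twist gene and its Hdac neighbour, distances were 87.8 kb with 0 peaks and 80.8 kb with 3 peaks. The 300 kb on the far side held 0 peaks before Ferd3l and 11 before Twist2. These windows start at different places, since the 28.4 kb from Ferd3l to Twist1, with 1 peak of pooled signal 73.0, are not in the first. The strongest of the 3 sites between Twist2 and Hdac4 had 116 in replicate 1 and 110 in replicate 2, with 230 pooled. Twist2 itself had a summit 234 bp past its TSS with 24.0 in replicate 1 and 13.9 in replicate 2, against the Twist1 site 983 bp past its TSS with 12.3 and 7.75.

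Among 10 bHLH genes listed as relatives of Twist1, 3 had an optimal summit within 1 kb of a TSS, namely Twist1, Twist2 and Scx, the tendon factor scleraxis, with pooled signals of 21.05, 35.9 and 31.8. The share among all protein-coding genes was 33.4%. Ferd3l, the heart and limb factors Hand1 and Hand2, Tcf15, Tcf21, Msc and Ptf1a had none. Of the 11 histone deacetylase genes Hdac1 to Hdac11, 6 had one. The strongest were at Hdac10 (324 pooled, 167 and 157 in the replicates) and Hdac11 (317 pooled, 161 and 159). Hdac9 came next with the 68.2 described above, followed by the class IIa genes Hdac7 with 55.2 and Hdac5 with 36.2, and by Hdac1 with 16.5. Hdac4, the remaining class IIa gene, had none. The summits given for Hdac9, Hdac7, Hdac5 and Hdac11 lay near other annotated starts, 9406, 50049, 28657 and 8727 bp from the gene's first TSS. Those for Hdac10 and Hdac1 lay 194 and 191 bp from it. Hdac11 had 3 optimal summits within 1 kb of a TSS, and a weaker summit than the one given lay 196 bp from its first TSS.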

How the data were processed

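CTCF peaks of 2 libraries from mouse limb were read from 5 deposited lists in narrowPeak format on mm10. Per the notes deposited with the samples, each replicate list came from that library's alignments, a pooled list from both, and the conservative and optimal lists (irreproducible discovery rate, IDR, thresholded) from these lists. No source used here gives the aligner, caller, control or thresholds. The signal of a peak is the authors' deposited value on its own list's scale. The authors' deposited −log10 q-value is capped, and the deposited IDR score is likewise the authors'; neither was used to rank peaks. The full lists stop at 300000 peaks each and go far below any call, so a low rank there marks no called site. Read depth is unknown. Columns left out for want of a sample were 0.

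Replicate values are those of the nearest summit within 100 bp. Genes are GENCODE M21, and sequence is GRCm38.p6, the assembly behind mm10 (0 peaks passed a chromosome end). Gene body classes used all transcripts. The motif matrix started from the most enriched 10-mer at the strongest 1000 optimal peaks of odd-numbered autosomes and was refined in 10 rounds. Its score limit came from windows 1000 bp either side of all optimal summits. With 1 group there is no test between conditions, and no p-value was computed. Steps were tested on simulated data. Described in full were the strongest and weakest peaks, those nearest each TSS, the outermost in Hdac9 and those with the largest replicate ratios. Members and lists were chosen with earlier results of these data known. Python 3.11.15, pandas 2.3.3 and pysam 0.24.0 were used.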

Additional observations from a re-analysis of the deposited data

How the results depend on the processing

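The interval held 20 peaks, 16 in the conservative list, 9 in the strongest 50% of the optimal list, and 15 or 17 with flanks of 100 or 200 kb. Hdac9 introns held 12, against 5 in the strongest 50% and 6 with the longest coding transcript alone, which covers only the 3′ part of the gene. In that strongest 50%, all 9 were among the strongest of both replicates (14 before) and 8 had a motif (17 before); by construction fewer peaks enter. Taking the strongest 49970 peaks of a single library, without replicate 1 or without replicate 2, gave 19 to 20 peaks in the interval, 10 to 13 in Hdac9 introns and 16 to 17 with a motif. The count within 1 kb of a member's TSS was 2, but 0 at 500 bp and 4 at 5 kb. The Twist2-Hdac4 interval held 28, against 34 in the conservative list, 31 to 35 without 1 replicate, 15 in the strongest 50%, and 15 or 18 with flanks of 100 or 200 kb. Of 90 alternative values for 15 results, 34 moved by more than 1.5 times for a count, or by 1 SD between replicates or more for a density or a ratio, and 56 did not. No paired analysis was possible because there is a single group. Depth is unknown, so an undetected site is not shown to be absent.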

Other observations

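The last exon of Hdac9-205, at the end of Hdac9 nearest to Twist1, held a site that is not in the optimal list. It had a signal of 10.4 in replicate 1 (summit 34051283, rank 49895) and 14.3 in replicate 2 (summit 34051339, rank 38604), and it stood in the conservative list with 23.7. It lay 93.6 kb past the Twist1 TSS, in the stretch of 212 kb that the optimal list leaves without a summit. Its motif was forward, and the conservative list held 14 motifs in the interval, 5 of them forward. The site was singled out after its values were seen. Of the strongest 49970 peaks of each replicate within the interval, 3 of 19 in replicate 1 and 2 of 20 in replicate 2 had no optimal summit within 100 bp, and this was the single site on both sides.

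Motif score and pooled signal were loosely related over the 20 sites, with a Spearman rho of 0.463 in the interval and 0.485 over all optimal peaks, given as a description of sites that share 2 libraries.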
